A study of Lactuca sativa var. capitata with 10 samples.

Results

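The genes here were the most abundant transcripts of lettuce roots whose mean level stayed within set limits between untreated soil and soil with chitin. Of the 200 genes with the highest mean expression in potting soil, 179 were kept because their mean in chitin-amended soil, divided by their mean in potting soil, lay above 0.67 and below 1.5. Expression was given as CPM, the reads of a gene divided by all counted reads of its library and scaled to 1000000. The 179 genes were 0.467% of the 38293 genes in the table and 0.629% of the 28458 genes with at least 1 read. The choice rested on the level in potting soil and on the ratio between both treatments, so that levels and ratios of these genes are given as a description, without a test. The rule also left out LSAT_6X101780 and LSAT_2X90361, neither of which was among the 200 genes.

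Roots came from wild-type butterhead lettuce, Lactuca sativa var. capitata, cultivar 'Alexandria', grown in a greenhouse without strict control of temperature, light or humidity. Control plants grew in potting soil (PS) and treated plants in the same soil to which chitin had been added at 2 g per L (PS+CH), and both were sampled at 72 hours post-transplanting (hpt). Each treatment had 5 pools of roots from 5 plants each, and each pool gave 1 RNA-seq library. Libraries held between 17624520 and 18545790 counted reads, and every gene kept by the rule had between 5510 and 155402 reads in each library.

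Chitin, the polymer of fungal cell walls and arthropod shells, is sensed by plants through receptors with LysM domains, and its fragments set off defence signalling. In a root, a small part of the genes yields a large part of the messenger RNA, and such abundant transcripts commonly encode parts of the ribosome, the cytoskeleton, primary metabolism and cell wall or stress proteins. Genes of steady, high expression are sought as references in qPCR, because a change in any other gene is then read against them. RNA-seq measures shares, so that a gene can take a larger share of a library only where others take a smaller one.

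None of the 179 genes could be given a name or a function. The count table holds locus tags only, and none of the 31 genes listed elsewhere with both a name and a tag, in a list of qPCR primers, was among them. The nearest was Patellin-3 (PATL3, LSAT_6X111521), of a family of lipid-binding proteins, which ranked 207 in PS with 492 ± 79.7 CPM in PS and 749 ± 73.3 CPM in PS+CH. The genes are therefore described by tag, level and behaviour between pools, and no sequence is shown. Without gene lengths, CPM in different genes compare shares of reads and not numbers of transcripts. The first digit of a tag matched the chromosome in the RefSeq table for 6 of 6 genes checked, which carry the same name beside a tag and beside an NCBI gene ID in the study. By this digit, the 179 genes were spread over all 9 chromosomes, with a single tag outside them. Chromosome 4 held 14 tags (7.82%, against 13.1% of genes with counts), and chromosome 5 held 27 (15.1%, against 13.6%).

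The label of the tissue was not checked against markers of root or green tissue, for which no tags are used here. In bulk roots, fewer cells of a type and less RNA per cell cannot be told apart.

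The 179 genes together took between 16.8 and 20.3% of the reads of a library. Their summed share was 19.1, 18.3, 16.8, 18.5 and 19.3% of reads in PS pools 1 to 5, and 19.8, 20.1, 19.6, 20.3 and 19.4% in PS+CH pools 1 to 5. The mean was 18.4 ± 1.00% (SD, n = 5) in PS and 19.8 ± 0.356% (SD, n = 5) in PS+CH, and both ranges did not overlap. PS pool 3 was the lowest of all 10 libraries, and the other PS pools, at 18.3 to 19.3%, also lay below all PS+CH pools. In the same pool, the 18 genes of the top 200 with a ratio of 0.67 or lower took their largest share, 2.54% of reads, against 1.47 to 1.73% in the other PS pools and 0.795 to 1.21% in PS+CH. The 3 genes with a ratio of 1.5 or higher held 0.150 to 0.223% in PS and 0.267 to 0.356% in PS+CH. All genes of the top 200 together, with no limit on the ratio, took 19.4 to 21.2% in PS and 20.7 to 21.6% in PS+CH. These ranges overlapped. As the ratio chose the 179, the 18 and the 3 genes, nothing is read from the gaps between treatments in their summed shares. PS pool 3 entered the PS mean of that ratio, so that its high share for the 18 genes is not independent of their choice.

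Within the group, the 10 most abundant held 17.6 to 19.1% of the group's reads in PS and 19.1 to 19.3% in PS+CH, and the 50 most abundant held 51.1 to 53.7% and 51.1 to 51.6%. Mean levels in PS ranged 12.9-fold, from 499 to 6425 CPM with a median of 720.5 CPM. In PS+CH they lay between 421 and 7812 CPM with a median of 840.0 CPM.

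LSAT_2X97861 was the most abundant gene in both treatments. LSAT_2X97861 had 6264, 6896, 4888, 7313 and 6763 CPM in PS pools 1 to 5 and 7729, 7959, 7172, 8379 and 7822 CPM in PS+CH pools 1 to 5. Its lowest value was that of PS pool 3 and its highest that of PS+CH pool 4, and the treatments overlapped. Next came LSAT_6X32121, at 4393, 5158, 3563, 4673 and 4667 CPM in PS pools 1 to 5 and 5563, 5707, 5384, 5508 and 5242 CPM in PS+CH pools 1 to 5. All PS+CH pools of this gene lay above all PS pools. LSAT_4X183881 had 4649.9, 2687, 3476, 3182 and 2881 CPM in PS pools 1 to 5 and 3976, 2680.3, 3725, 2559.8 and 3591 CPM in PS+CH pools 1 to 5. This gene ranked 3 in PS and 5 in PS+CH, with high and low pools in both treatments. LSAT_4X58821 had 3426, 3105, 3857, 2800.1 and 3316 CPM in PS pools 1 to 5 and 2373, 2694, 2856, 2693 and 2557 CPM in PS+CH pools 1 to 5. Here PS pool 3 was the highest library, opposite to LSAT_2X97861. The other 6 genes of the 10 most abundant had means between 2370.3 and 3185 CPM in PS and between 2511 and 3788 CPM in PS+CH.

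**Figure D1:**
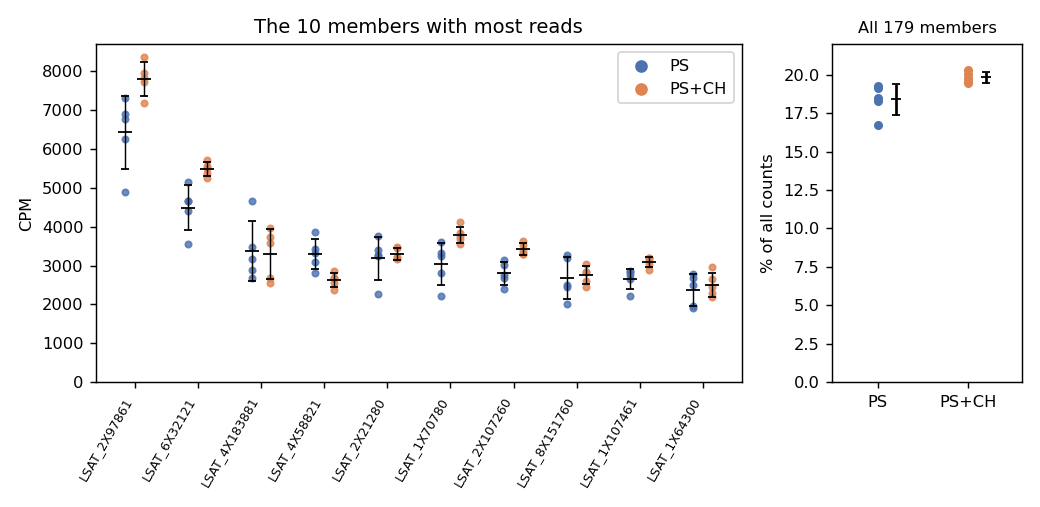
Left, CPM of the 10 most abundant genes, and right, percent of counted reads in all 179 genes; points are the 5 pools of PS and of PS+CH, and bars the mean ± SD. PS pool 3 was lowest for LSAT_2X97861 at 4888 CPM, and was highest for LSAT_4X58821 at 3857 CPM.

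The order of abundance was similar in both treatments. Among the 179 genes, 163 were also in the top 200 of PS+CH, and the lowest of them there ranked 304. The mean levels in PS and PS+CH had a Spearman's rho of 0.912 over the 179 genes, which were measured in the same libraries and chosen for a narrow ratio, so that the value is descriptive. Of the 10 most abundant genes in PS, 9 were among the 10 most abundant of the group in PS+CH. Both top 200 lists shared 172 genes, 86% of each.

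Inside the limits of the rule, ratios leaned towards PS+CH. The ratio had a median of 1.11 with quartiles of 0.973 and 1.21, and was above 1 in 126 genes and below 1 in 53. It lay between 0.9 and 1.1 in 60 genes and between 0.8 and its inverse in 143. The size of the lean depended on how libraries were scaled, and the median of all genes tested moved with it. After TMM scaling the median log2-fold change of the group was 0.24, against 0.0050 for all 21936 genes tested. By library size alone these medians were 0.15 and -0.09. The next 200 genes by abundance, chosen without a limit on the ratio, had medians of 0.26 and 0.17. A fitted log2-fold change above 0 was found in 146 of the 179 genes with TMM, where 50.6% of all genes had one, and in 126 by library size, where 39.6% of all genes had one.

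All 179 genes passed the filter on low counts. With edgeR's quasi-likelihood test, 36 of them had an adjusted p-value under 0.05, of which 33 were higher and 3 lower in PS+CH, where 18.5% of all genes were called, 7.55% higher and 11% lower. By library size alone the calls were 24, of which 13 were higher and 11 lower (19.3% of all genes called), and with DESeq2 they were 76 (25.5%). As the ratio chose the genes, nothing is read from these counts. Every PS+CH pool lay above every PS pool in 23 genes, against 3.35% of all genes, and below in 7 genes, against 10.7%. With TMM scaling these were 49 genes, against 7.04%, and 3 genes, against 7.02%. Leaving out PS+CH pool 1, 2, 3, 4 or 5 lowered the 36 calls to 5, 9, 19, 10 and 11, while calls over all genes fell to 6.78, 9.85, 16.1, 9.71 and 9.95%. Leaving out PS pool 1, 4 or 5 lowered them to 21, 23 and 17, with 15.9, 16.9 and 12.8% of all genes called. Without PS pool 2 they were 32, with 18.6% of all genes called. Without PS pool 3 they stayed at 36, of which 29 were the same genes, while calls over all genes fell to 11.6%. With 1 pool fewer, the genes without overlap can only grow in number. Leaving out PS pool 4 or PS+CH pool 3 brought the 30 genes to 59 and 46, and all genes from 14.1% to 18.4 and 19.3%. For 56 genes, the SD between pools of a treatment was larger than the size of the log2-fold change.

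The limits of the rule cut through a continuous range. Just inside the lower limit was LSAT_5X146820 (ratio 0.696), with 1369, 1126, 1555, 1270.0 and 1589.9 CPM in PS pools 1 to 5 and 961, 903, 899, 1094 and 951 CPM in PS+CH pools 1 to 5, without overlap. LSAT_2X48320 and LSAT_6X117861 followed at 0.702 and 0.707. Just outside were LSAT_8X44921, LSAT_5X140700 and LSAT_5X116141 at 0.662, 0.658 and 0.648. In each of them PS pool 3 was the highest library, at 1594, 1075 and 1608 CPM. The other PS pools had 929 to 1080, 572 to 765 and 976 to 1198 CPM. Their place outside the limit depended on PS pool 3, and without this pool the rule kept 188 genes. At the upper limit, LSAT_4X99441, LSAT_3X1361 and LSAT_5X134601 were inside at 1.49, 1.42 and 1.41, and LSAT_6X92001, LSAT_3X7300 and LSAT_6X24520 were outside at 1.52, 1.64 and 1.64. PS pool 3 was the lowest library for LSAT_3X7300 and LSAT_6X24520, at 417 and 421 CPM. The other PS pools had 546 to 725 and 657 to 1141 CPM. For LSAT_6X92001 the lowest was PS pool 2, at 408 CPM. LSAT_4X99441 had 721, 431, 422, 417 and 505 CPM in PS pools 1 to 5 and 904, 699.9, 728, 679 and 716 CPM in PS+CH pools 1 to 5. Pool 1 was the highest of both treatments for this gene. It was also the last of the 200 by abundance, at 499 CPM, and LSAT_3X104800 just missed the list at 498.8 CPM.

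**Figure D2:**
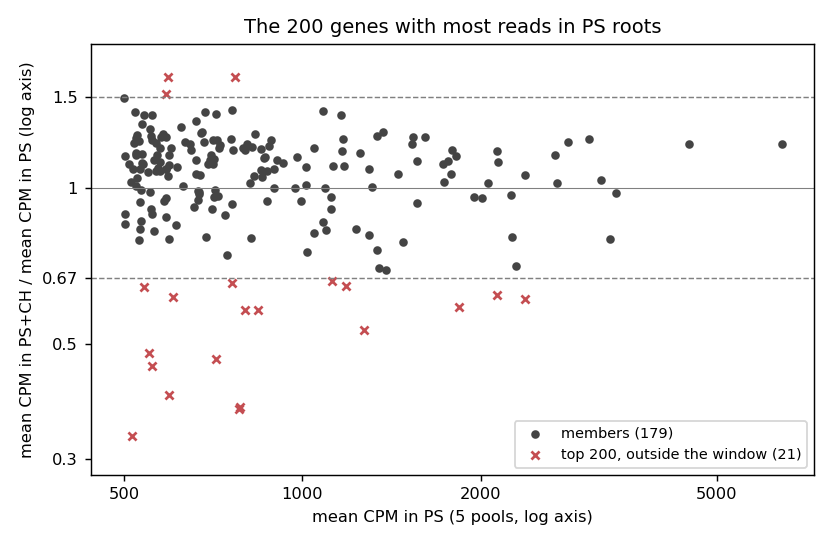
Ratio of mean CPM in PS+CH to that in PS (log axis) against mean CPM in PS (log axis) for the 200 most abundant genes, with lines at the limits 0.67 and 1.5. The 179 genes between the lines had ratios from 0.696 to 1.49, with 18 genes below and 3 above.

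Nearest to a ratio of 1 was LSAT_8X37801, at 894 ± 48.3 CPM in PS and 894 ± 109.9 CPM in PS+CH (SD, n = 5). LSAT_5X163380, LSAT_3X24720, LSAT_9X58201 and LSAT_3X68040 had ratios between 0.994 and 1.00. Which genes lay nearest depended on the scaling. With TMM these 5 genes had log2-fold changes of 0.081 to 0.093, where LSAT_2X104600, with a CPM ratio of 0.940, had 0.0016. The SD of log2 CPM within a treatment was 0.097 to 0.187 in these 5 genes, against a median of 0.18 in the 179. The largest of the 5 was that of LSAT_3X68040. This gene had 639.8, 476, 508, 610.0 and 438 CPM in PS pools 1 to 5, a 1.46-fold range.

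Variation between pools of the same treatment did not enter the rule. It far exceeded counting error, which was 0.279 to 1.09% of the mean count. Over the 10 pools, the highest value of a gene was 1.61 times the lowest in the median, from 1.15 times in LSAT_5X143121 to 3.39 times in LSAT_1X51360. It was under 1.5 in 65 genes, over 2 in 23 and over 3 in 2. The SD of log2 CPM within a treatment had a median of 0.18 in these genes and of 0.21 in all genes tested.

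The steadiest gene by this SD was LSAT_2X104600 (0.058 on the log2 scale). LSAT_2X104600 had 503, 501, 553, 562 and 539.7 CPM in PS pools 1 to 5 and 474, 495, 507, 499 and 524 CPM in PS+CH pools 1 to 5. No pool stood apart. LSAT_8X76840 had 1642, 1796, 1764, 1872 and 1822 CPM in PS pools 1 to 5 and 1822, 1968, 1878, 1922 and 1913 CPM in PS+CH pools 1 to 5. The SD of this gene, of rank 24, was 0.065. LSAT_5X21300, LSAT_5X143121 and LSAT_1X63160 followed at 0.075, 0.075 and 0.079. All PS+CH pools of LSAT_1X63160 lay above all PS pools, with means of 871 ± 40.1 CPM in PS and 943 ± 21.1 CPM in PS+CH (SD, n = 5).

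At the other end was LSAT_2X51461, with an SD of 0.557. LSAT_2X51461 had 2450.3, 1340.3, 2432, 884 and 2930.1 CPM in PS pools 1 to 5 and 1984, 2303, 1767, 2176 and 1400.2 CPM in PS+CH pools 1 to 5. PS pool 4 was lowest and PS pool 5 highest, a 3.31-fold range within untreated roots, while the means of both treatments had a ratio of 0.960. LSAT_3X221 had 565, 1153, 774, 497 and 1266 CPM in PS pools 1 to 5 and 853, 1428, 1239.5, 862 and 684 CPM in PS+CH pools 1 to 5. PS pools 2 and 5 and PS+CH pools 2 and 3 were high. LSAT_2X5961 had 2759.8, 1385, 1831, 1871 and 1245 CPM in PS pools 1 to 5 and 2912, 1194, 2460.2, 1855 and 2055 CPM in PS+CH pools 1 to 5. In this gene pool 1 was highest in each treatment. LSAT_1X51360 and LSAT_7X31721 had SDs of 0.455 and 0.448, with the lowest value of LSAT_1X51360 in PS pool 2, at 365 CPM, and the highest of LSAT_7X31721 in the same pool, at 1348 CPM.

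Pools differed more in PS than in PS+CH for most of the 179 genes. The median SD of log2 CPM was 0.23 in PS and 0.11 in PS+CH, and the SD was larger in PS in 159 genes (88.8%), against 63% of all genes tested. This was not particular to the group, as it held for 176 of the next 200 genes by abundance. Without PS pool 3, the median SD in PS was 0.14, and the SD was larger in PS in 127 genes (71.0%), against 50.4% of all genes. A test of absolute deviations with limma found no gene with a different spread at an adjusted p-value under 0.05, among the 179 or among all 21936 (0%). At an unadjusted p under 0.05 it gave 11 of the 179, all wider in PS, where 7.02% of all genes passed, 4.99% wider in PS and 2.03% wider in PS+CH. A p-value above the threshold does not show that the spread was equal. In simulated counts, 200 genes were given a much wider spread in PS. The limma test called 2 of them at an adjusted p-value under 0.05, while 189 had an unadjusted p under 0.05. After adjustment the test could hardly call such genes, so that nothing is read from its lack of calls here.

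The spread of the summed share of the 179 genes was compared as a single value. Its mean absolute deviation from the treatment's median, on the log2 scale, was 0.0532 in PS and 0.0196 in PS+CH (n = 5 each), a difference of -0.0336 with p = 0.238 in a two-sided exact permutation test over all arrangements of 5 and 5 pools. Among the alternatives run, the difference passed the threshold only without PS pool 4, at -0.0469 with an exact p = 0.0317, and was -0.0114 without PS pool 3.

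**Figure D3:**
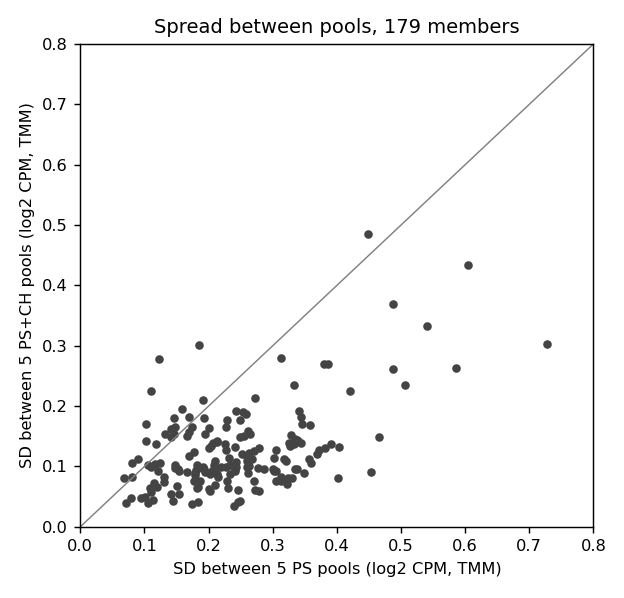
SD of log2 CPM between the 5 pools of PS and of PS+CH for each of the 179 genes, with a line of equal SD. Of the 179 genes, 159 had the larger SD in PS.

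PS pool 3 carried much of the variation. It was the lowest PS pool for 99 of the 179 genes and the highest for 25, and it lay below the mean of its treatment in 130. Its median deviation was -0.25 on the log2 scale, against 0.04 to 0.09 in the other PS pools and -0.05 to 0.07 in the PS+CH pools. Over all genes tested, the median deviation of this pool was 0.02. The next 200 genes by abundance behaved alike, with PS pool 3 lowest for 121 of 200. The first principal component of the deviations of the 179 genes took 42.9% of their variation within treatments and weighed PS pool 3 most, the second took 23.3% and set PS pool 1 against PS pool 2, and the third took 18.7%.

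**Figure D4:**
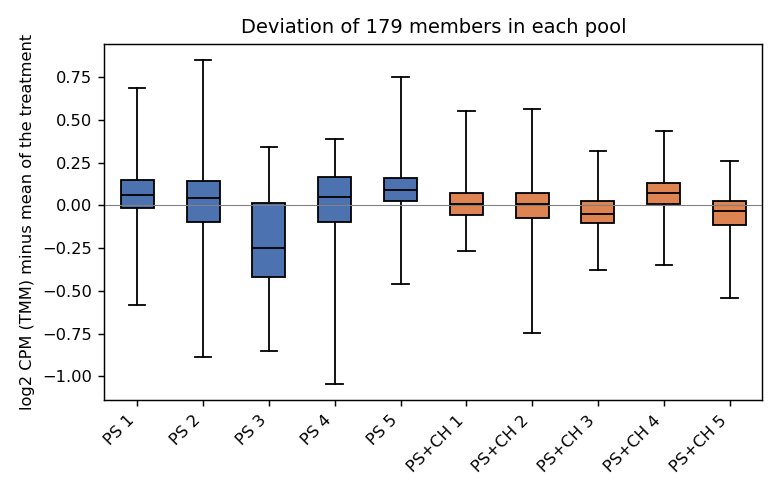
Deviation of log2 CPM (TMM) from the mean of the treatment, for the 179 genes in each pool, with boxes for the quartiles, a line at the median and whiskers to the lowest and highest gene. PS pool 3 had a median of -0.25, and the other 9 pools had medians between -0.05 and 0.09.

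Some genes moved together from pool to pool. Correlations of these deviations over the 10 pools are descriptive, as all genes shared the same libraries, and the sets below were chosen after their values were seen. Over all pairs of the 179 genes Pearson's r had a median of 0.233, and without PS pool 3 of 0.0803. LSAT_2X97861 had an r above 0.9 with 46 genes, and with 11 without PS pool 3. Most like it was LSAT_8X3580 (r = 0.997, and 0.982 without PS pool 3). LSAT_8X3580 had 581, 637, 396, 685 and 614 CPM in PS pools 1 to 5 and 731, 749, 659, 833 and 734 CPM in PS+CH pools 1 to 5. As in LSAT_2X97861, PS pool 3 was lowest and PS+CH pool 4 highest. LSAT_9X63320 and LSAT_2X19401 had r of 0.993 and 0.987.

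A second set did not follow PS pool 3. LSAT_3X221 went with LSAT_5X138880, LSAT_3X1361 and LSAT_7X102740 (r = 0.959, 0.959 and 0.952), and these values hardly moved without PS pool 3 (0.959, 0.961 and 0.953). LSAT_7X102740 had 368, 594, 472, 359.7 and 818 CPM in PS pools 1 to 5 and 681, 909, 807, 651 and 612 CPM in PS+CH pools 1 to 5. PS pools 2 and 5 were the highest of PS in all 4 genes, and PS+CH pools 2 and 3 of PS+CH. LSAT_3X68040 ran the opposite way (r = -0.857). LSAT_2X51461 went with LSAT_9X55680 and LSAT_3X34040 (r = 0.943 and 0.937), and LSAT_1X51360 with LSAT_6X91941 (r = 0.970). LSAT_7X31721 and LSAT_6X31000 were opposed, with r = -0.950. LSAT_6X31000 had 798, 592, 909, 743 and 688 CPM in PS pools 1 to 5 and 599, 475, 534, 562 and 602 CPM in PS+CH pools 1 to 5. PS pool 2 was lowest of PS and PS+CH pool 2 of PS+CH, where LSAT_7X31721 was highest of each.

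**Figure D5:**
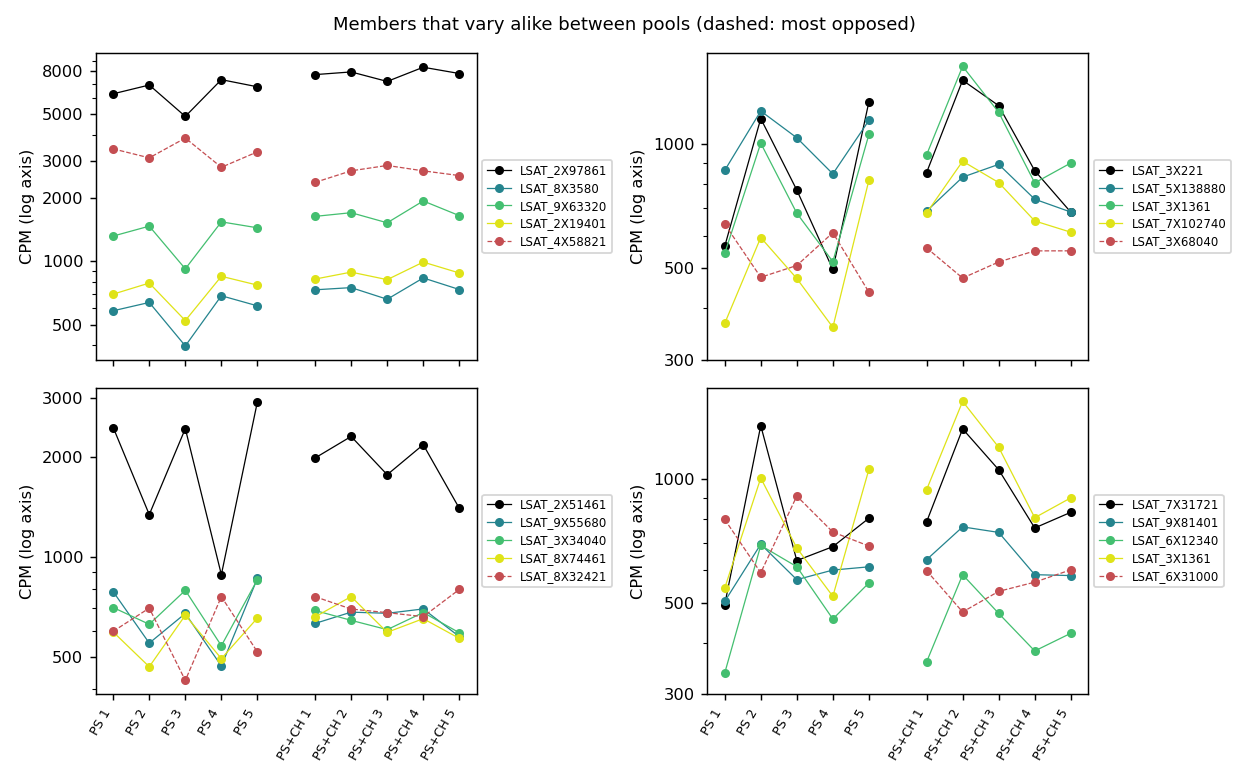
CPM (log axis) in the 10 pools for 4 sets of genes that moved together, each with its most opposed gene as a dashed line; lines join the values of 1 gene and imply no order of pools. In the first set PS pool 3 was low, with 396 CPM for LSAT_8X3580, and LSAT_4X58821 was high there.

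Among the 179 genes, 3 pairs stood in adjacent rows of the count table. LSAT_2X108920 and LSAT_2X108980 had r = 0.987 over the 10 pools, LSAT_8X74461 and LSAT_8X75280 had r = 0.985, and LSAT_3X221 and LSAT_3X1361 had r = 0.959. Whether the genes of a pair are near-identical copies that share reads was not tested, so that their levels are uncertain.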

How the data were processed

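Total RNA of 10 root pools, 5 per treatment, was sequenced. Per the submitters' processing notes and the methods, the authors used FastQC 0.11.9, aligned reads to the genome of L. sativa cultivar Salinas with STAR 2.7.10 and counted reads per gene with featureCounts 2.0.1. The deposited values are whole-number counts without normalization. Libraries were strand-specific per the methods, and the strand and multi-mapping options of the counting are not given in the sources used here. All 10 columns were used. Replicates are the pools as numbered in the sample titles, and no pair of pools in a treatment agreed within sampling noise (chi-square per gene at least 109). The sample descriptions number the pools differently, so that pools of the same title number can carry different description numbers in PS and PS+CH.

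CPM were counts divided by the column total. The fits used R 4.3.3 with edgeR 4.0.16 (TMM, filterByExpr with a minimum count of 10, quasi-likelihood test, Benjamini-Hochberg adjustment over 21936 genes). Spread was tested with limma 3.58.1 on absolute deviations of log2 CPM (prior count 2) from the treatment mean. DESeq2 1.42.0, other scalings, no filter, replicate blocks and leaving out each pool were alternatives. Tables were made with Python 3.11.15, and the steps were tested on simulated data. Counting error is the Poisson error of the mean count, and intervals between libraries are SDs.

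Genes were named by rule: the 10 most abundant, the 3 nearest each limit inside and outside, ranks 199 to 202, the 5 smallest and 5 largest SDs within treatments and the 5 ratios nearest 1. The members and lists were chosen with earlier results of these data known. Photosynthesis genes listed as markers of green tissue were not used, since their tags had been assigned from fold changes and not from names. Leaf libraries, metabolites and plant measurements were not analysed here.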

Additional observations from a re-analysis of the deposited data

Results flagged for a closer look

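LSAT_4X99441 was the only gene of the 32 named genes of the group with a pool far from the others of its treatment, and it was so in both treatments. In PS, pool 1 had 721 CPM where the other pools had 417 to 505 CPM. In PS+CH, pool 1 had 904 CPM where the others had 679 to 728 CPM. The gap to the nearest pool was 0.713 and 0.782 of the range of the 5 pools. These were 2 of 66 sets of 5 values examined by Dixon's test, and chance alone gives about 1 in 20. Pool 1 of PS and pool 1 of PS+CH share the number of their titles but not that of their descriptions.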

How the results depend on the processing

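The rule kept 180 genes with TMM or DESeq2 size factors (176 shared with the 179), 183 with medians of pools (175 shared), 143 with limits of 0.8 and its inverse, 88 from the top 100 and 357 from the top 400. Leaving out each pool gave 176 to 188 genes, of which at least 173 were shared. The 36 members with an adjusted p-value under 0.05 in edgeR (18.5% of all genes) became 76 with DESeq2 (25.5%), 28 with DESeq2 size factors (18.2%), 24 by library size (13 higher and 11 lower, 19.3%) and 23 with no filter on low counts (12.3%). When each pool was left out in turn they were 5 to 36, with 6.78 to 18.6% of all genes called. With the title number as a replicate block they were 66 (28.3% of all genes), of which 35 were shared with the 36. With the description number as a replicate block, over the 8 pools that share numbers, edgeR called 0 members and 0 of all genes. In this fit 39 members had an unadjusted p under 0.05, as did 5696 of all 22064 genes, and nothing is read from the 39. Same-numbered pools by title had correlations of deviations between -0.014 and 0.485, with a mean of 0.258. Of 10 pools, 5 correlated best with their own number, where each had 5 pools of the other treatment to match. Whether pools of the same number shared a factor was not tested. The main fits did not take the numbers as pairs, and these values do not show that the pools were unpaired. For a different spread, limma called 0 members under each alternative run, the replicate block included, while among all genes it called 2 without PS pool 4 and 373 with no filter. After adjustment this test missed most of the simulated differences in spread, so that nothing is read from the 0 members. Genes without overlap numbered 52 with TMM (14.1% of all genes, as by column totals), chosen after seeing the data. They numbered 31 to 59 when each pool was left out, where 14.4 to 19.5% of all genes had no overlap. The difference in spread of the summed share lay between -0.0469 and -0.0114 when each pool was left out, was -0.0469 without PS pool 4, and kept its direction under all alternatives run. The median log2-fold change of the members lay between 0.16 and 0.25 when each pool was left out, 0.24 with the replicate block and 0.15 by library size. For single named genes under these settings, 515 log2-fold changes moved by less than the SD between pools and 5 by more. Of the named genes called by edgeR, 0 changed sign. The 5 larger moves were those of the 5 genes with the smallest SDs, each by library size alone. Among them, LSAT_2X104600 went from 0.0016 to -0.089 and LSAT_5X21300 from 0.018 to -0.073, and the others kept their sign. The cause of these changes was not tested. At these depths counting error was small beside the spread between pools, so that the number of pools and not the depth limits the precision.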
